A study of Mus musculus with 27 samples.

Results

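The miR-23, miR-27 and miR-24 microRNAs of the mouse are made from 2 paralogous clusters of 3 hairpins, called here the a cluster (miR-23a, miR-27a, miR-24-2) and the b cluster (miR-23b, miR-27b, miR-24-1). The members were the 10 mature names of these hairpins listed for this account, of 1900 mature names in the deposited tables, and they occupied 11 of 2035 loci. They were chosen by name with the levels in these same columns already known, so every level and ratio below is a description and none is a test. In the series, embryonic stem (ES) cells of the mouse line CJ7 lacking Eed (Eed-/-), lacking Ezh2 (Ezh2-/-) or lacking Jarid2 (Jarid2-/-) were compared with wild-type CJ7 cells, and all 4 genotypes were grown in serum with leukemia inhibitory factor and received no treatment. Eed and Ezh2 are core subunits of PRC2, the Polycomb complex that methylates histone H3 in silent chromatin, and Jarid2 is an accessory protein that helps recruit it. The labels name 27 samples, of which 7 are small RNA samples (2 Eed-/-, 2 Ezh2-/-, 1 Jarid2-/-, 2 wild-type), and the microRNA tables give 1 column of counts per genotype. Whether a mutant line is 1 clone is not given in the sources used here.

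A microRNA hairpin is cut from a longer transcript by Drosha and then by Dicer, which leaves a 5p and a 3p arm, and usually 1 of the arms is kept in an Argonaute protein while the other is degraded. The kept arm finds messenger RNAs mainly through its seed, bases 2 to 8 from the 5′ end, so arms with the same seed share most predicted targets. The hairpins of a cluster are carried on a shared primary transcript. miR-23 and miR-27 have been studied in endothelium, muscle, fat and blood cells, where miR-27 restrains fat cell formation, and miR-27a and miR-24 have been described as promoting the differentiation of mouse ES cells.

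The sequences below, from the deposited tables, show which members can stand in for each other. Capitals mark the seed, and each mature sequence is written 5′ to 3′.
mmu-miR-23a-3p: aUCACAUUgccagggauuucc
mmu-miR-23b-3p: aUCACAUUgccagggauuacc
mmu-miR-27a-3p: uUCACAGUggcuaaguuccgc
mmu-miR-27b-3p: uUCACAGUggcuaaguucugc
mmu-miR-24-3p: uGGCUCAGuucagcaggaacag
mmu-miR-24-2-5p: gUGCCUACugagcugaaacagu
mmu-miR-24-1-5p: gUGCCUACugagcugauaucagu
mmu-miR-27a-5p: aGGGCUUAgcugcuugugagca
mmu-miR-27b-5p: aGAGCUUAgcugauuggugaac
The 3p arms of miR-23a and miR-23b had 21 bases each and differed by a single substitution, U19A, counted from the 5′ end with the base of miR-23a first. The 3p arms of miR-27a and miR-27b likewise differed by C19U. Both changes lie outside the seed, and the seeds UCACAUU and UCACAGU were each held by no other mature name in the tables. miR-24-3p had the same sequence at both loci. The 5p arms of miR-24-2 and miR-24-1 shared their seed and their first 16 bases and then diverged, whereas the 5p arms of miR-27a and miR-27b had different seeds. For 9 of the 10 members the same sequence stood in RefSeq (GRCm38.p6), and for miR-23b-3p the RefSeq sequences used here had no entry.

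The a cluster lay at chr8:86732426-86732795 and the b cluster at chr13:63401837-63402580, both on the plus strand, in build mm9 per the submitters' processing notes. From the first to the last member base the a cluster spanned 370 bp and the b cluster 744 bp. Both kept the order miR-23, miR-27, miR-24. In the RefSeq gene table (GRCm38.p6, used for gene names only) the b hairpins fell within the span of Aopep, an aminopeptidase gene, with Fancc as the next protein-coding gene. The a hairpins fell within no other gene's span, and the next protein-coding gene was Zswim4.

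**Figure D1:**
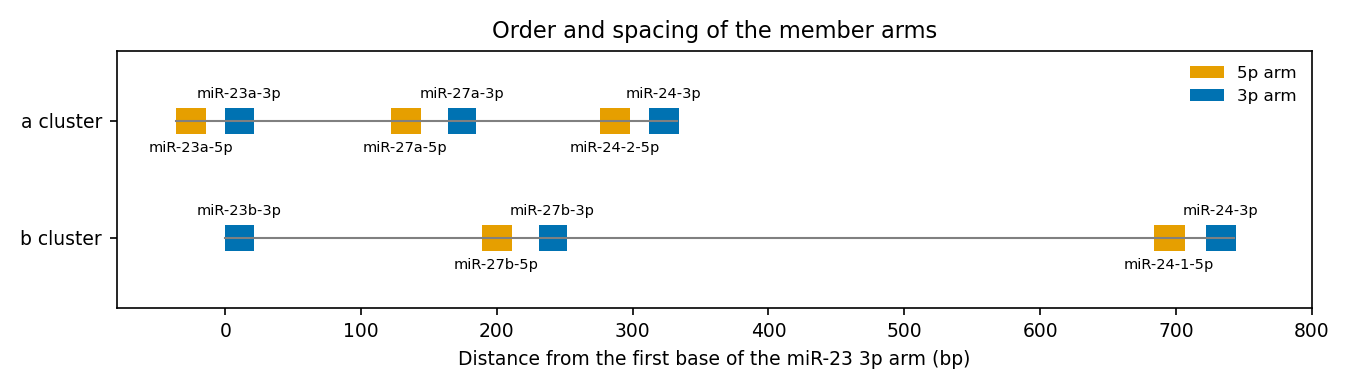
Order and spacing of the member arms in the a cluster (upper row, chromosome 8) and the b cluster (lower row, chromosome 13), in bp from the first base of the miR-23 3p arm. Orange boxes are 5p arms and blue boxes 3p arms. The miR-27 3p arm began 164 bp from that base in the a cluster and 231 bp in the b cluster, and the miR-24 3p arm 312 bp and 722 bp.

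The columns totalled 42293019 microRNA counts in Eed-/-, 32074712 in Ezh2-/-, 8485806 in Jarid2-/- and 23793733 in wild-type, so Jarid2-/- values are the least precise. Levels are given as counts-per-million of a column's microRNA counts (CPM), and a count of 0 allowed at most 0.354 CPM (3 counts, Jarid2-/-). Ranges in parentheses are exact 95% binomial intervals, which cover counting error only, since reads copied by PCR are not independent molecules and each genotype had 1 column with no replicate check. ES cell microRNAs of the miR-290 and miR-302 clusters made up 34.7% of counts in Eed-/-, 36.8% in Ezh2-/-, 32.2% in Jarid2-/- and 37.4% in wild-type, and 19 or 20 of the 20 listed names were detected. Small RNA from a mixed culture does not tell fewer cells of a kind from less RNA per cell.

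The 10 members together, with miR-24-3p taken once, made up a smaller share of microRNA counts in every mutant column than in wild-type. The share was 1.08% (1.07–1.08%) in Eed-/-, 0.843% (0.840–0.846%) in Ezh2-/- and 0.712% (0.706–0.717%) in Jarid2-/-, against 1.66% (1.65–1.66%) in wild-type. Most of it came from the 3p arms of miR-23 and miR-24. On the authors' reads-per-million scale, described below, miR-24-3p and miR-23b-3p stood above wild-type in Eed-/- and miR-23a-3p below it. All 11 loci had counts in every column, from 33 for miR-27a-5p in Jarid2-/- to 158276 for miR-24-3p in Eed-/-.

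miR-24-3p had 3742 CPM in Eed-/-, 3313 CPM in Ezh2-/- and 2472 CPM in Jarid2-/-, against 6051 CPM in wild-type. It ranked 31, 29 and 48 among mature names in those mutant columns and 19 in wild-type. By CPM all mutant columns lay below wild-type, and the fold was 1.62 lower (1.61–1.63) in Eed-/-, 1.83 lower (1.81–1.84) in Ezh2-/- and 2.45 lower (2.41–2.48) in Jarid2-/-. The tables give this name at both loci with nearly the same count, 4 counts apart in Eed-/-, 10 in Ezh2-/-, 2 in Jarid2-/- and 1 in wild-type, so its reads cannot be given to either cluster.

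miR-23a-3p, the most abundant arm of the a cluster alone, had 2817 CPM in Eed-/-, 2206 CPM in Ezh2-/- and 1502 CPM in Jarid2-/-, against 4811 CPM in wild-type. Its paralog miR-23b-3p had 3372 CPM in Eed-/-, 2114 CPM in Ezh2-/- and 2563 CPM in Jarid2-/-, against 3823 CPM in wild-type. The a paralog stood furthest below wild-type in Jarid2-/-, by 3.20-fold (3.14–3.26), where the b paralog was 1.49-fold lower (1.47–1.51). In Eed-/- the a paralog was 1.71-fold lower (1.69–1.72) and the b paralog 1.13-fold lower (1.12–1.14). In Ezh2-/- the pair was closer, at 2.18-fold (2.16–2.20) and 1.81-fold (1.79–1.83) lower for a and b.

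miR-27a-3p had 359 CPM in Eed-/-, 368 CPM in Ezh2-/- and 217 CPM in Jarid2-/-, against 892 CPM in wild-type. miR-27b-3p had 248 CPM in Eed-/-, 270 CPM in Ezh2-/- and 252 CPM in Jarid2-/-, against 635 CPM in wild-type. By microRNA totals the mutant columns lay close together for miR-27b-3p, and Jarid2-/- over Eed-/- gave a ratio of 1.02 (0.969–1.06), within counting error. Its fold below wild-type was 2.56 (2.49–2.62) in Eed-/-, 2.36 (2.29–2.42) in Ezh2-/- and 2.52 (2.41–2.64) in Jarid2-/-. For miR-27a-3p, by the same totals, Eed-/- over Ezh2-/- was within counting error at 0.978 (0.954–1.00), while Jarid2-/- stood lower. Its fold below wild-type was 2.48 (2.43–2.53) in Eed-/-, 2.43 (2.37–2.48) in Ezh2-/- and 4.11 (3.92–4.31) in Jarid2-/-. How close mutants stood to each other depended on the scaling. With TMM factors, which scale columns on the bulk of their loci, the log2 ratio of miR-27b-3p to wild-type was -1.48 in Eed-/-, -0.51 in Ezh2-/- and -1.36 in Jarid2-/-, and that of miR-27a-3p was -1.43, -0.55 and -2.06, so that Ezh2-/- stood nearest to wild-type.

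Ordered by level, the 3p arms ranked differently between genotypes. In Eed-/- it ran miR-24-3p, miR-23b-3p, miR-23a-3p, miR-27a-3p, miR-27b-3p. Ezh2-/- and wild-type had miR-23a-3p before miR-23b-3p. In Jarid2-/- miR-23b-3p was first, ahead of miR-24-3p, and miR-27b-3p stood before miR-27a-3p. Mature arms have nearly the same length, so these levels are per molecule read, although library kits capture different sequences with unequal efficiency.

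**Figure D2:**
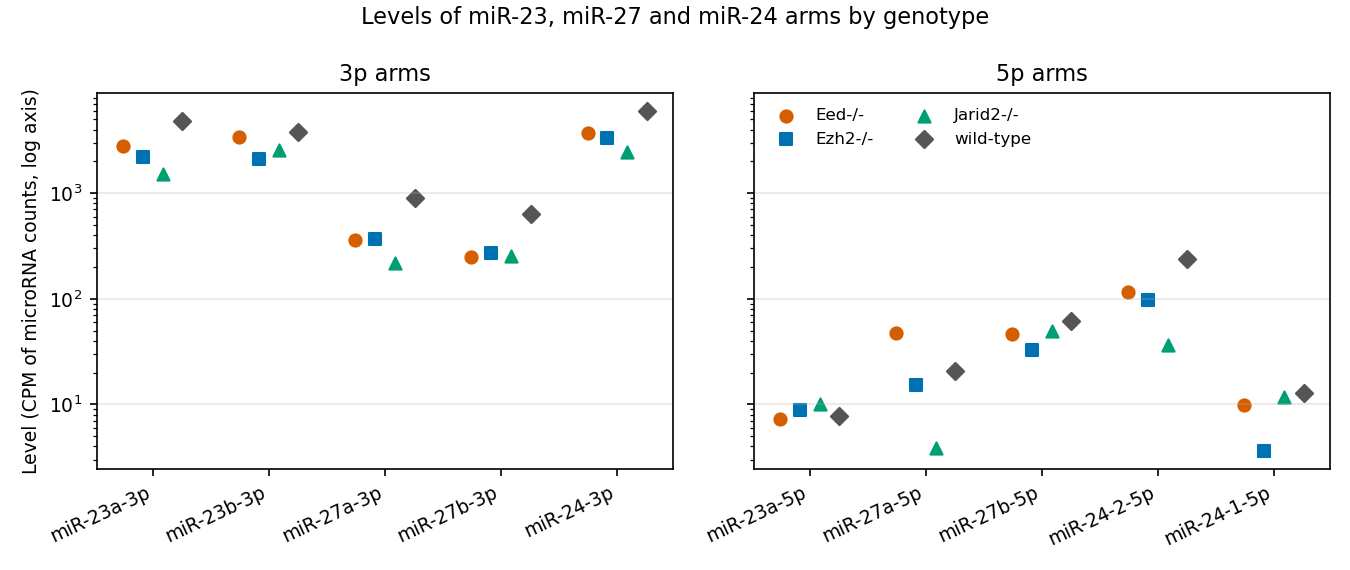
Levels of the 10 members in CPM (log axis) for the 3p arms (left) and the 5p arms (right), with 1 point per deposited column in the order Eed-/-, Ezh2-/-, Jarid2-/-, wild-type. By CPM every 3p arm was highest in wild-type, whereas by RPM miR-23b-3p and miR-24-3p were highest in Eed-/-. Among 5p arms miR-27a-5p was highest in Eed-/-, at 47.9 CPM, and lowest in Jarid2-/-, at 3.89 CPM.

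The 5p arms, usually the degraded strand of these hairpins, were rarer than the 3p arms in every column. miR-24-2-5p, the 5p arm of the a cluster's miR-24 hairpin, had 116 CPM in Eed-/-, 97.7 CPM in Ezh2-/- and 36.8 CPM in Jarid2-/-, against 238 CPM in wild-type. Its fold below wild-type was 2.06 (1.98–2.14) in Eed-/-, 2.44 (2.33–2.55) in Ezh2-/- and 6.48 (5.78–7.29) in Jarid2-/-. No member stood further below wild-type than this arm in Jarid2-/-. miR-24-1-5p, from the b cluster, had 9.95 CPM in Eed-/-, 3.59 CPM in Ezh2-/- and 11.7 CPM in Jarid2-/-, against 12.7 CPM in wild-type. For it Ezh2-/- stood apart, 3.54-fold below wild-type (2.85–4.43), and Jarid2-/- lay within counting error of wild-type at 1.09-fold lower (0.864–1.38). These arms are the only member reads that separate the miR-24 hairpins.

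miR-27a-5p was the member that varied most among the mutants. It had 47.9 CPM in Eed-/-, 15.4 CPM in Ezh2-/- and 3.89 CPM in Jarid2-/-, against 20.6 CPM in wild-type, from counts of 2026, 495 and 33 against 489. Eed-/- was 2.33-fold above wild-type (2.11–2.58) and Jarid2-/- 5.28-fold below it (3.71–7.76). Jarid2-/- was 12.3-fold below Eed-/- (8.74–17.9). miR-27b-5p had 46.4 CPM in Eed-/-, 32.6 CPM in Ezh2-/- and 49.3 CPM in Jarid2-/-, against 61.3 CPM in wild-type, and Jarid2-/- over Eed-/- was within counting error at 1.06 (0.953–1.18). miR-23a-5p was the lowest member in wild-type, with 7.33 CPM in Eed-/-, 8.76 CPM in Ezh2-/- and 10.0 CPM in Jarid2-/-, against 7.82 CPM in wild-type, and each mutant's ratio to wild-type had an interval that included 1.

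For counts over the tables, a locus needed 10 or more counts in either of the compared columns. It was called when mutant CPM plus 1 over wild-type CPM plus 1 had a log2 value of 1 or more in size. These counts come from the contrasts known when the members were chosen, and nothing is read from them. In Eed-/- 3 of the 11 member loci were called lower (miR-27a-3p, miR-27b-3p and miR-24-2-5p), beside 15% of all counted loci, and 1 was called higher (miR-27a-5p), beside 17.5%. In Ezh2-/- 5 were called lower (miR-23a-3p, miR-27a-3p, miR-27b-3p, miR-24-2-5p and miR-24-1-5p), beside 24.5%, and 0 higher, beside 4.9%. With TMM factors the Ezh2-/- count became 0, and with median-ratio factors (another scaling on all loci) or RPM denominators (the read totals behind the authors' reads-per-million values) it became 1. With RPM denominators the 3 lower calls in Eed-/- became 0. In Jarid2-/- 7 were called lower by microRNA totals (4 with RPM denominators), beside 22.8%, and they were miR-23a-3p, miR-27a-3p, miR-27b-3p, miR-27a-5p, miR-24-2-5p and both loci of miR-24-3p. In that mutant 0 were called higher, beside 16.3%. Among loci with a mean of 1000 or more counts in the compared columns, the lower calls were 22.6% (Eed-/-), 31.1% (Ezh2-/-) and 27.9% (Jarid2-/-). The median log2 ratio of the member loci was -0.69 in Eed-/-, -0.89 in Ezh2-/- and -1.29 in Jarid2-/-, and that of all counted loci was 0.08, -0.44 and -0.17. Both loci of miR-24-3p enter the member median, which in Eed-/- and Jarid2-/- was the value of miR-24-3p itself. The 3 comparisons share the wild-type column.

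How far the members stood from wild-type depended on the scaling of the columns. MicroRNA counts were 15.8% of the denominator behind the authors' reads-per-million (RPM) values in Eed-/-, 13.2% in Ezh2-/- and 13.6% in Jarid2-/-, against 9.66% in wild-type. On the deposited RPM scale miR-24-3p had 592 RPM in Eed-/-, 436 RPM in Ezh2-/- and 337 RPM in Jarid2-/-, against 584 RPM in wild-type. miR-23b-3p had 534 RPM in Eed-/-, 278 RPM in Ezh2-/- and 349 RPM in Jarid2-/-, against 369 RPM in wild-type, so on that scale both stood above wild-type in Eed-/-. Both miR-27 3p arms, miR-23a-3p and miR-24-2-5p stayed below wild-type in every mutant under each of the 5 scalings tried. For miR-23a-3p in Eed-/- the log2 ratio came as near to 0 as -0.06. The median log2 ratio of all counted loci itself lay between -0.06 and 0.46 in Eed-/-, between -0.44 and 0.09 in Ezh2-/- and between -0.27 and 0.20 in Jarid2-/-. Set against that median in the same column, the member median was lower by between 0.44 and 0.86 (log2) in Eed-/-, between 0.27 and 0.45 in Ezh2-/- and between 1.00 and 1.17 in Jarid2-/- over those scalings. By microRNA totals, loci with a mean of 1000 or more counts had medians of -0.0003 (Eed-/-), -0.60 (Ezh2-/-) and -0.02 (Jarid2-/-). The gap therefore also depended on which loci the members were set beside.

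**Figure D3:**
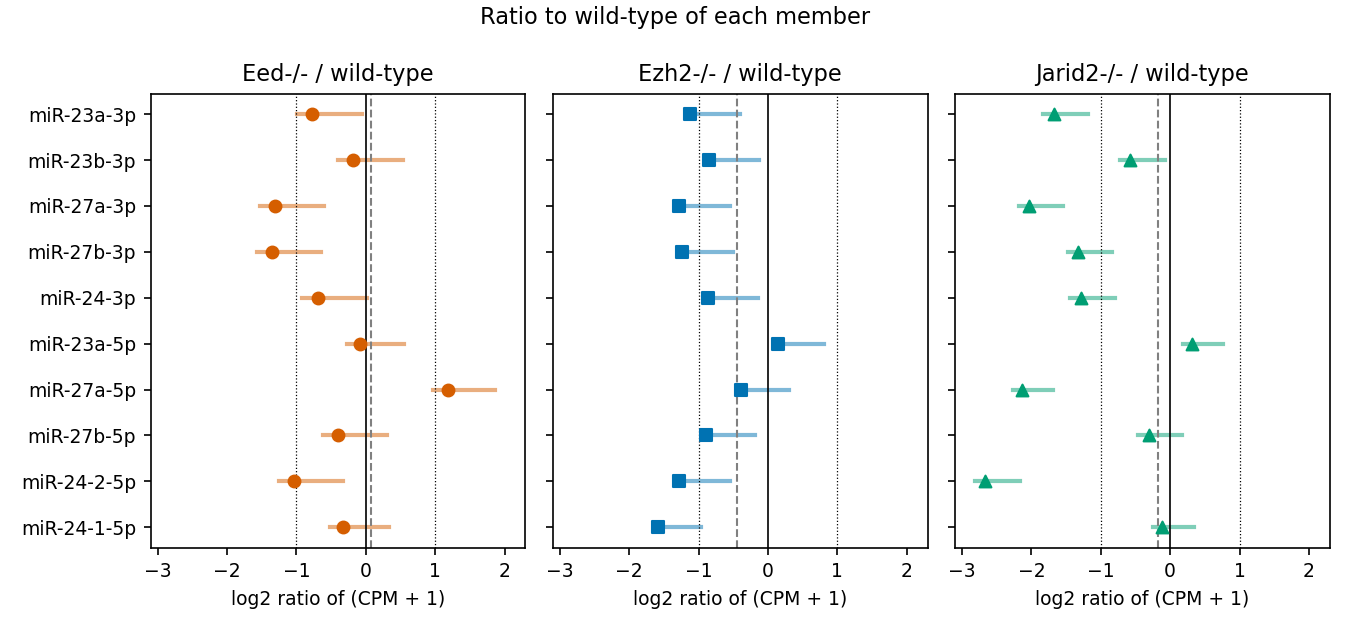
Log2 ratio of CPM plus 1 to wild-type for each member in Eed-/- (left), Ezh2-/- (middle) and Jarid2-/- (right). Points use microRNA totals, bars span the 5 scalings, the dashed line is the median of all counted loci and dotted lines mark a 2-fold difference. The miR-27 3p arms, miR-23a-3p and miR-24-2-5p lie left of 0 throughout, while miR-27a-5p lies at 1.18 in Eed-/- and at -2.14 in Jarid2-/-.

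Summed by seed, the miR-27 family stood further below wild-type than the miR-23 family in each mutant. The 3p arms of miR-27a and miR-27b together had 608 CPM in Eed-/-, 637 CPM in Ezh2-/- and 469 CPM in Jarid2-/-, against 1527 CPM in wild-type, a fold of 2.51 lower (2.47–2.55), 2.40 lower (2.36–2.44) and 3.25 lower (3.15–3.36). The miR-23 pair had 6188 CPM in Eed-/-, 4320 CPM in Ezh2-/- and 4064 CPM in Jarid2-/-, against 8634 CPM in wild-type, a fold of 1.40 lower (1.39–1.40), 2.00 lower (1.99–2.01) and 2.12 lower (2.10–2.15). On the RPM scale the miR-23 pair stood above wild-type in Eed-/-, at a log2 ratio of 0.23, and the miR-27 pair below it, at -0.62. The ratio of miR-27 to miR-23 within a cluster, which no scaling of columns changes, was lower in the mutants at both sites. In the a cluster there were 12.8 miR-27a-3p reads per 100 miR-23a-3p reads in Eed-/-, 16.7 in Ezh2-/- and 14.5 in Jarid2-/-, against 18.5 in wild-type. In the b cluster there were 7.36 miR-27b-3p reads per 100 miR-23b-3p reads in Eed-/-, 12.7 in Ezh2-/- and 9.84 in Jarid2-/-, against 16.6 in wild-type. The seed of miR-24-3p was shared by 5 other names, of which miR-6410 had the highest level, with 24.1 CPM in Eed-/-, 52.5 CPM in Ezh2-/- and 6.95 CPM in Jarid2-/-, against 153 CPM in wild-type.

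The share of reads from the a paralog is measured within a column and is likewise free of the scaling. The 3p paralogs differ only at base 19 of 21, so a read that ends before that base fits both. How such reads were counted is not given in the sources used here. Their part in the 3p shares, and in the ratios within a cluster above, was not tested. For the miR-23 3p arms the a share was 45.5% (45.3–45.7%) in Eed-/-, 51.1% (50.8–51.3%) in Ezh2-/- and 37.0% (36.4–37.5%) in Jarid2-/-, against 55.7% (55.5–55.9%) in wild-type. Wild-type thus had more a than b reads, and Eed-/- and Jarid2-/- fewer. For the miR-27 3p arms the a share was 59.1% (58.5–59.7%) in Eed-/-, 57.7% (57.0–58.4%) in Ezh2-/- and 46.3% (44.7–47.8%) in Jarid2-/-, against 58.4% (57.9–58.9%) in wild-type. Here Jarid2-/- stood apart, and the intervals of Eed-/- and Ezh2-/- overlapped that of wild-type. The pairs of 3p arms therefore gave lower a shares together in Jarid2-/- but not in Eed-/-, where miR-23 differed by 10.2 percentage points from wild-type and miR-27 by 0.724.

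Among the 5p arms the a share covered a wider range. miR-24-2-5p made up 92.1% (91.3–92.8%) of the miR-24 5p reads in Eed-/-, 96.5% (95.8–97.1%) in Ezh2-/- and 75.9% (71.5–80.0%) in Jarid2-/-, against 94.9% (94.4–95.5%) in wild-type. miR-27a-5p made up 50.8% (49.2–52.4%) of the miR-27 5p reads in Eed-/-, 32.1% (29.8–34.5%) in Ezh2-/- and 7.32% (5.09–10.1%) in Jarid2-/-, against 25.1% (23.2–27.1%) in wild-type. Both were lowest in Jarid2-/-. The miR-23 5p pair, with miR-23b-5p, which is no member, as the other arm, differed in Jarid2-/-, where its a share stood above wild-type. miR-23a-5p made up 51.4% (47.3–55.5%) of the miR-23 5p reads in Eed-/-, 72.1% (67.3–76.5%) in Ezh2-/- and 75.9% (66.9–83.5%) in Jarid2-/-, against 44.3% (39.5–49.2%) in wild-type. That pair rests on low counts, 85 and 27 in Jarid2-/-.

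**Figure D4:**
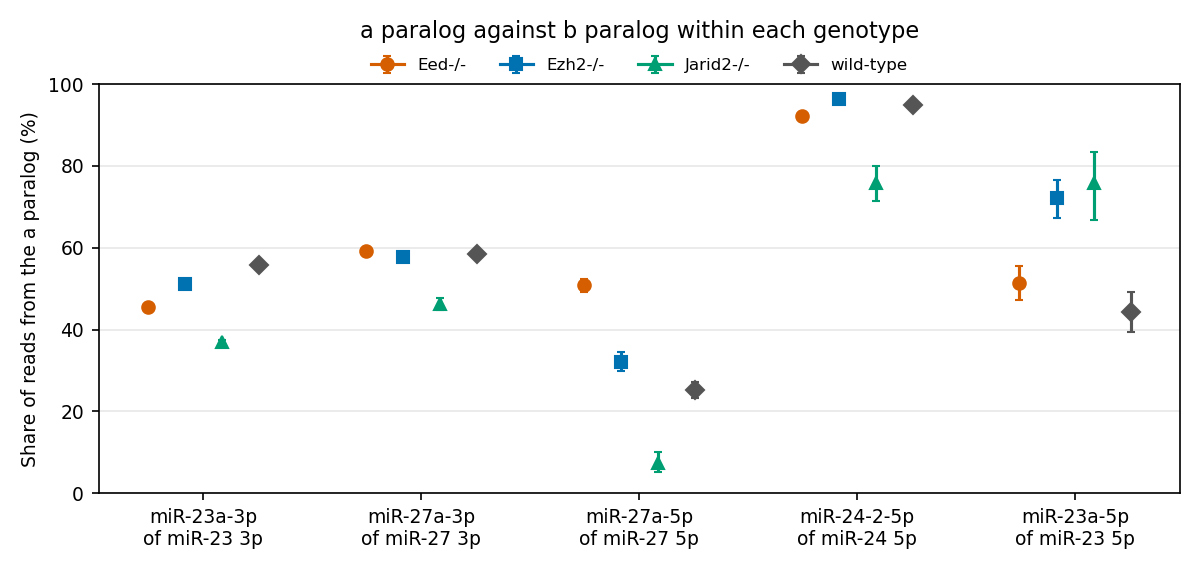
Share of reads from the a paralog (%) for 5 pairs of arms, with 1 point per deposited column in the order Eed-/-, Ezh2-/-, Jarid2-/-, wild-type and exact 95% intervals for counting error. Jarid2-/- has the lowest share in 4 pairs and, in the miR-23 5p pair, the highest at 75.9%.

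The use of the 5p and 3p arms of the same hairpin also differed between columns. For miR-27a the 5p arm made up 11.8% (11.3–12.2%) of the hairpin's reads in Eed-/-, 4.03% (3.69–4.39%) in Ezh2-/- and 1.76% (1.21–2.46%) in Jarid2-/-, against 2.25% (2.06–2.46%) in wild-type. In Eed-/- the ratio of 5p to 3p reads was 5.78 times that of wild-type. For miR-27b the 5p share was 15.7% (15.1–16.4%) in Eed-/-, 10.8% (10.2–11.4%) in Ezh2-/- and 16.3% (14.9–17.8%) in Jarid2-/-, against 8.81% (8.38–9.25%) in wild-type, above wild-type in every mutant. For miR-23a it was 0.260% (0.231–0.290%) in Eed-/-, 0.396% (0.351–0.445%) in Ezh2-/- and 0.663% (0.530–0.819%) in Jarid2-/-, against 0.162% (0.140–0.187%) in wild-type. For miR-23b, with its 5p arm outside the members, it was 0.205% (0.182–0.230%) in Eed-/-, 0.160% (0.132–0.194%) in Ezh2-/- and 0.124% (0.0817–0.180%) in Jarid2-/-, against 0.257% (0.225–0.292%) in wild-type. The a and b hairpins of miR-23 thus went opposite ways, although for miR-23b the intervals of Eed-/- and wild-type overlapped.

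Shifts of at least 2-fold were common in these columns, and how common larger shifts were was not counted. The ratio of 5p to 3p reads differed from wild-type by at least 2-fold for 1 of the 3 hairpins with both arms among the members in Eed-/- (miR-27a), beside 41.5% of all hairpins with enough counts. In Ezh2-/- it did so for 1 (miR-23a, 2.44 times), beside 30.9%. In Jarid2-/- it did so for 2 (miR-23a, 4.10 times, and miR-27b, 2.02 times), beside 47.7%. With 3 hairpins, these counts do not set the members apart from other hairpins.

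**Figure D5:**
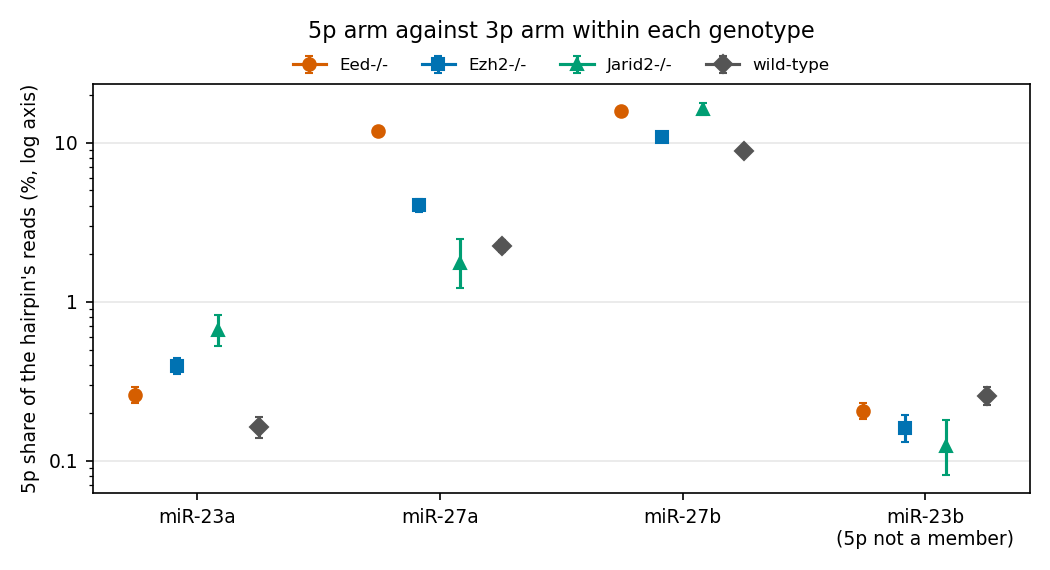
Share of a hairpin's reads that came from its 5p arm (%, log axis), with 1 point per deposited column in the order Eed-/-, Ezh2-/-, Jarid2-/-, wild-type and exact 95% intervals for counting error. miR-27a reached 11.8% in Eed-/-, against 2.25% in wild-type.

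The microRNAs with the most similar pattern were taken as the names with the smallest Euclidean distance over the 3 log2 ratios, among 338 names with at least 100 counts in every column. For miR-27b-3p the nearest was miR-145a-5p, a microRNA of smooth muscle and fibroblasts, at a distance of 0.17, with ratios of -1.37 in Eed-/-, -1.22 in Ezh2-/- and -1.16 in Jarid2-/-. miR-3068-3p followed at 0.44. For miR-27a-3p the nearest was miR-181c-5p at 0.29, followed by miR-542-5p at 0.43, and for miR-24-3p it was miR-181c-3p at 0.21, followed by miR-29b-3p at 0.46. The miR-181c arms lie on the minus strand of the a cluster's chromosome, 29.6 and 29.7 kb before miR-23a-3p. miR-23a-3p was nearest to miR-135a-5p at 0.33 and miR-29b-3p at 0.37, and miR-23b-3p to miR-298-3p at 0.25 and miR-326-3p at 0.32. Among the members, miR-23a-3p lay at 0.66 from its cluster mate miR-27a-3p, at 0.69 from miR-27b-3p of the other cluster and at 1.28 from its paralog miR-23b-3p. In the b cluster miR-27b-3p lay at 1.44 from its cluster mate miR-23b-3p and at 0.71 from its paralog miR-27a-3p, so distances followed neither cluster nor seed throughout. The points share the wild-type column, and with 3 ratios per name a small distance is a description only.

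MicroRNAs typical of fibroblasts and mesenchyme, a cell type that can be present beside ES cells, had a summed level below wild-type in every mutant once miR-21a-5p was left out, but the listed names did not go together. Without miR-21a-5p, the 6 listed names (the miR-199 arms, miR-214-3p, miR-143-3p and miR-145a-5p) summed to 575 CPM in Eed-/-, 573 CPM in Ezh2-/- and 846 CPM in Jarid2-/-, against 1621 CPM in wild-type, and all 6 were detected in every column. With miR-21a-5p the sum was 15797 CPM in Eed-/-, 5424 CPM in Ezh2-/- and 6487 CPM in Jarid2-/-, against 8630 CPM in wild-type, so Eed-/- then stood highest. miR-145a-5p, the largest part of the sum without miR-21a-5p, had 417 CPM in Eed-/-, 462 CPM in Ezh2-/- and 481 CPM in Jarid2-/-, against 1079 CPM in wild-type. miR-143-3p had 49.9 CPM in Eed-/-, 43.1 CPM in Ezh2-/- and 5.54 CPM in Jarid2-/-, against 179 CPM in wild-type. In Jarid2-/-, where the member median was lowest, the miR-199 3p arms were level with wild-type. miR-199a-3p had 41.5 CPM in Eed-/-, 27.9 CPM in Ezh2-/- and 157 CPM in Jarid2-/-, against 155 CPM in wild-type. miR-199b-3p had nearly the same counts, 3702 against 3699 for miR-199a-3p in wild-type. The sums above include both names, so they may hold the same reads under each of them. miR-199b-3p is therefore not read here as separate evidence. miR-214-3p had at most 5.38 CPM, in wild-type. The part of such cells in the member levels was not tested. The summed level of the 2 endothelial arms of miR-126 was 805 CPM in Eed-/-, 712 CPM in Ezh2-/- and 324.5 CPM in Jarid2-/-, against 434 CPM in wild-type, and the 4 blood names summed to 24.4 CPM in Eed-/-, 259 CPM in Ezh2-/- and 97.3 CPM in Jarid2-/-, against 358 CPM in wild-type. The neural names (miR-124-3p and miR-9-5p) summed to 1031 CPM in Eed-/-, 1599 CPM in Ezh2-/- and 18.0 CPM in Jarid2-/-, against 1017 CPM in wild-type, and the muscle names to at most 26.1 CPM in any column.

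Other microRNA families were set beside the members by the same counts. Their lists also count loci, so a name placed at several loci enters a median and a count of calls more than once. The miR-221 and miR-222 family, 4 loci, had median log2 ratios of -0.65 in Eed-/-, -1.82 in Ezh2-/- and -2.03 in Jarid2-/-, with 1, 4 and 4 loci called lower. The miR-29 family, 8 loci, had medians of -0.15 in Eed-/-, -0.81 in Ezh2-/- and -1.09 in Jarid2-/-, with 0, 3 and 4 called lower. The miR-15/16 family, 8 loci, had medians of -0.02 in Eed-/-, -0.22 in Ezh2-/- and -0.995 in Jarid2-/-, with 1, 0 and 4 called lower, and 1 locus was called higher in Eed-/-, at a log2 ratio of 2.04. Over all counted loci the lower calls were 15%, 24.5% and 22.8% in these mutants, and the higher calls in Eed-/- 17.5%. With miR-24-3p entered at both loci, the member median of -0.69 in Eed-/- was close to that of miR-221 and miR-222. The member medians in the other mutants lay between those of miR-29 and miR-221 and miR-222.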

How the data were processed

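The microRNA tables were deposited with 1 column of read counts per genotype and the same values as RPM, per the file headers, for miRBase release 20. Per the labels' protocols, gel-selected small RNA was sequenced on a SOLiD instrument, and cutadapt, Bowtie and mm9 are named in the submitters' processing notes. Not given in the sources used here are versions and how multi-mapping reads were counted. Columns were assigned to genotypes by name. The wild-type column carries only the name of the CJ7 line, the Eed-/- column the name HEED, and the Jarid2-/- column the older name Jumonji. Where a genotype had 2 samples, the sources used here do not say if its column pools them.

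CPM used each column's microRNA total. Log2 ratios added 1 CPM, which understates differences of low loci. Folds had exact conditional binomial intervals and shares Clopper-Pearson intervals (scipy 1.17.1). No test between genotypes was made, because there was 1 column per genotype. Scaling alternatives were TMM (edgeR 4.0.16), median-ratio size factors (DESeq2 1.42.0), the denominators behind the authors' RPM values, and totals without the Gtl2-Rian-Mirg and miR-290 microRNAs. The code was tested on simulated data.

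The members and lists were chosen with earlier results of these data known. Named were all members, the 2 nearest names of each 3p member, miR-23b-5p, every miR-3074 name, and the miR-15/16, miR-29 and miR-221 and miR-222 families. miR-6410, the single marker names and the share of all hairpins with a changed arm ratio were added after values were seen. Chromatin and messenger RNA measurements were not analysed here, so the loss of Eed, Ezh2 and Jarid2 was not checked.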

Additional observations from a re-analysis of the deposited data

How the results depend on the processing

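Alternatives were other scalings, a pseudocount of 0.1 or 10 CPM, a minimum of 1 or 100 counts, and 1 value per mature name. No called ratio changed sign under any of them. In Eed-/- the 1 locus called higher became 0 with median-ratio factors and 0 with a pseudocount of 10 CPM, and the 3 called lower became 0 with RPM denominators. In Ezh2-/- the 5 called lower became 0 with TMM, 1 with median-ratio factors and 1 with RPM denominators, and in Jarid2-/- the 7 became 4 with RPM denominators. The other alternatives left these counts within 1.5 times. Over all counted loci, RPM denominators gave 350 higher and 106 lower in Eed-/- (192 and 164 by microRNA totals) and 253 and 176 in Jarid2-/- (155 and 217), and TMM gave 144 and 163 in Ezh2-/- (49 and 245). Uncalled ratios that turned positive with RPM denominators in Eed-/- were miR-23a-5p (0.54), miR-24-3p (0.02), miR-23b-3p (0.53), miR-27b-5p (0.30) and miR-24-1-5p (0.33). In Jarid2-/- they were miR-27b-5p (0.18) and miR-24-1-5p (0.34). In Ezh2-/- miR-27a-5p turned positive with TMM (0.30), median-ratio factors (0.10) and RPM denominators (0.03). The cause was not tested. With both arms summed, the a share of miR-27 was 58.0% in Eed-/-, 55.9% in Ezh2-/-, 42.3% in Jarid2-/- and 56.7% in wild-type. No paired analysis was possible because each genotype had 1 column, and leaving out a replicate was not possible for the same reason. Depth limits miR-27a-5p most, with 33 counts in Jarid2-/-.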

Other observations

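The strand opposite the miR-24 hairpins carries the annotated miR-3074 names, which are no members. miR-3074-1-3p, on the minus strand of the b cluster, overlaps miR-24-1-5p by 20 bases. It had 238 counts in Eed-/-, 108 in Ezh2-/- and 72 in Jarid2-/-, against 105 in wild-type, or 5.63, 3.37 and 8.48 CPM against 4.41 CPM. Its ratio to wild-type was 1.28 (1.01–1.62) in Eed-/-, 0.763 (0.578–1.01) in Ezh2-/- and 1.92 (1.40–2.62) in Jarid2-/-. In that column miR-24-1-5p itself was within counting error of wild-type. The other miR-3074 names had few reads: miR-3074-5p had 7 counts in Eed-/-, 0 in Ezh2-/- and 1 in Jarid2-/-, against 0 in wild-type, and miR-3074-2-3p, opposite the a cluster's miR-24-2-5p, had 0, 2 and 1 against 0. The opposite strand was thus read at the b cluster's miR-24 hairpin and near the limit of detection at that of the a cluster, although miR-24-2-5p was the more abundant 5p arm in every column.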
